A study of Mus musculus with 9 samples.

Results

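The 45 nuclear genes described here carry the Nduf names of respiratory complex I. By role they are 36 subunits of the complex, 7 assembly factors and 2 genes that share the name, Ndufa4 and its paralogue Ndufa4l2. They are the genes of the count table, 45 of 47593, whose mouse symbols begin with Ndufa, Ndufb, Ndufc, Ndufs or Ndufv and end in a number, with names of pseudogenes left out. Complex I is the NADH dehydrogenase of the mitochondrial inner membrane. It takes electrons from NADH in its N module, passes them along iron-sulphur clusters to ubiquinone in its Q module, and pumps protons through a membrane arm with a proximal and a distal part. A core of subunits inherited from bacteria carries out these steps, accessory subunits surround the core, and assembly factors build the complex without staying in it. Neurons and their progenitors in the cerebellum depend on it for oxidative phosphorylation.

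The RNA came from 9 whole, flash-frozen medulloblastomas, tumours of the cerebellum, of C57BL/6J mice. All 9 carried the Atoh1-cre (Math1-Cre) transgene, which expresses Cre recombinase in granule neuron progenitors, and the SmoM2 allele, an activated Smoothened fused to EYFP at ROSA26 that switches on the Hedgehog pathway after recombination. By genotype 3 were labelled Cdk6+/+ and 6 Cdk6-/-, and the comparison asks how tumours differ with this cyclin D dependent kinase intact or deleted. Groups are called by these labels throughout. No source used here gives the age of the mice, the deleted exon or whether each tumour came from a separate animal, so p-values measure only the spread between these samples. A whole tumour holds blood, vessel and glial cells besides tumour cells, and in such bulk RNA fewer cells of a type and less RNA per cell cannot be told apart.

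Libraries held between 21.4 and 56.8 x 1e6 counts, and every Cdk6+/+ library was deeper than every Cdk6-/- library. Cdk6 itself stood at 551 to 562 counts per 1e6 counts (CPM) in the Cdk6+/+ tumours. Its level in the libraries labelled Cdk6-/- ran from 2.17 to 562 CPM, with tumour 2 as high as the Cdk6+/+ tumours, so the count over the whole gene does not separate the labels. Cdk6-/- tumour 5 stood apart: 6 markers of cycling progenitors summed to 22.7 CPM there and to at least 1839 CPM in the other 8 tumours, and 6 Purkinje cell markers reached 8717 CPM. Markers of mature granule neurons summed to 7642 CPM in Cdk6-/- tumour 1 and 7994 CPM in tumour 5, and to at most 1536 CPM elsewhere, so results are also given without these 2 tumours. Other features moved with the labels. The 5 red cell markers summed to 65.9 to 111 CPM in Cdk6+/+ and to 0.535 to 8.01 CPM in Cdk6-/- tumours, where Hba-a1 had no count in tumours 1, 5 and 6, Hba-a2 none in tumours 1 and 6 and Hbb-bt none in tumour 6. The 6 microglial markers, all detected in every tumour, summed to 273 to 303 CPM against 76.0 to 204 CPM. Malat1, a nuclear long non-coding RNA, stood at 223 to 387 CPM against 1415 to 10420 CPM. Xist stood at 1583 to 2087 CPM with no Ddx3y count in all 3 Cdk6+/+ tumours and in Cdk6-/- tumour 6 (1757 CPM). In Cdk6-/- tumour 1 Xist stood at 131 CPM with Ddx3y at 0.161 CPM, and in tumours 2 to 5 Xist reached at most 0.958 CPM while Ddx3y lay between 57.6 and 145 CPM. The part of these features in the results on complex I was not tested.

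All 45 complex I genes passed the filter on low counts. Of these 45, 4 fell in the Cdk6-/- tumours at an adjusted p under 0.05 over all 18356 tested genes (edgeR's quasi-likelihood test with Benjamini-Hochberg adjustment), and 0 rose. They were Ndufb6 and Ndufb3 of the distal membrane arm, Ndufa12 of the N module and Ndufs5 of the proximal membrane arm. Over all tested genes 2.43% were called lower and 2.76% higher. At an unadjusted p under 0.05 the same test gave 12 complex I genes lower and 0 higher, where it gave 7.01% of all tested genes lower and 12.3% higher. DESeq2 called 11 complex I genes lower and limma-voom 5, and each called 0 higher. The shares of all tested genes called here are edgeR's. DESeq2 called more genes in all than edgeR, as the closing section states. For DESeq2 and limma-voom no share by direction is given. Estimates were negative for 40 of the 45 genes, with a median log2 fold change of -0.34 (Cdk6-/- minus Cdk6+/+) where the median of all tested genes was 0.16. In 15 of the 45 every Cdk6-/- tumour lay below every Cdk6+/+ tumour, an arrangement found in 7.98% of all tested genes, and in 0 every Cdk6-/- tumour lay above, found in 7.56%.

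Without Cdk6-/- tumours 1 and 5 the median of the 45 genes was nearly the same, -0.33, and 10 fell while 0 rose. Besides the 4 genes above these were Ndufs3, Ndufb8, Ndufa1, Ndufa3, Ndufs4 and Ndufb11. In that comparison 6.14% of all tested genes were called lower and 8.12% higher, and 19 of the 45 had every Cdk6-/- tumour below every Cdk6+/+ tumour, where 15.0% of all tested genes did. At an unadjusted p under 0.05 it gave 16 lower and 0 higher, against 13.5% and 18.0% of all tested genes. The calls over all 9 tumours changed with single libraries and with a Y-linked covariate. Without Cdk6+/+ tumour 3 the count was 0 (10 genes lower at an unadjusted p under 0.05), without Cdk6+/+ tumour 1 it was 1, and without Cdk6-/- tumour 5 it was 7. With the log2 level of Ddx3y as a covariate it was also 0, again with 10 lower and 0 higher at an unadjusted p under 0.05. That fit called 66 of all tested genes, where the fit without the covariate called 953. With the covariate the estimates were -1.84 (Ndufb6), -1.55 (Ndufa12), -1.15 (Ndufb3) and -1.55 (Ndufs5), and the median of the 45 genes was -0.45. Over 20 alternatives each of the 4 genes kept its sign, with estimates from -2.13 to -1.65 for Ndufb6, -2.03 to -1.30 for Ndufa12, -1.15 to -0.90 for Ndufb3 and -1.55 to -1.11 for Ndufs5. For these 4 genes every Cdk6-/- tumour lay below every Cdk6+/+ tumour, so leaving out tumours could not reverse the sign.

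**Figure D1:**
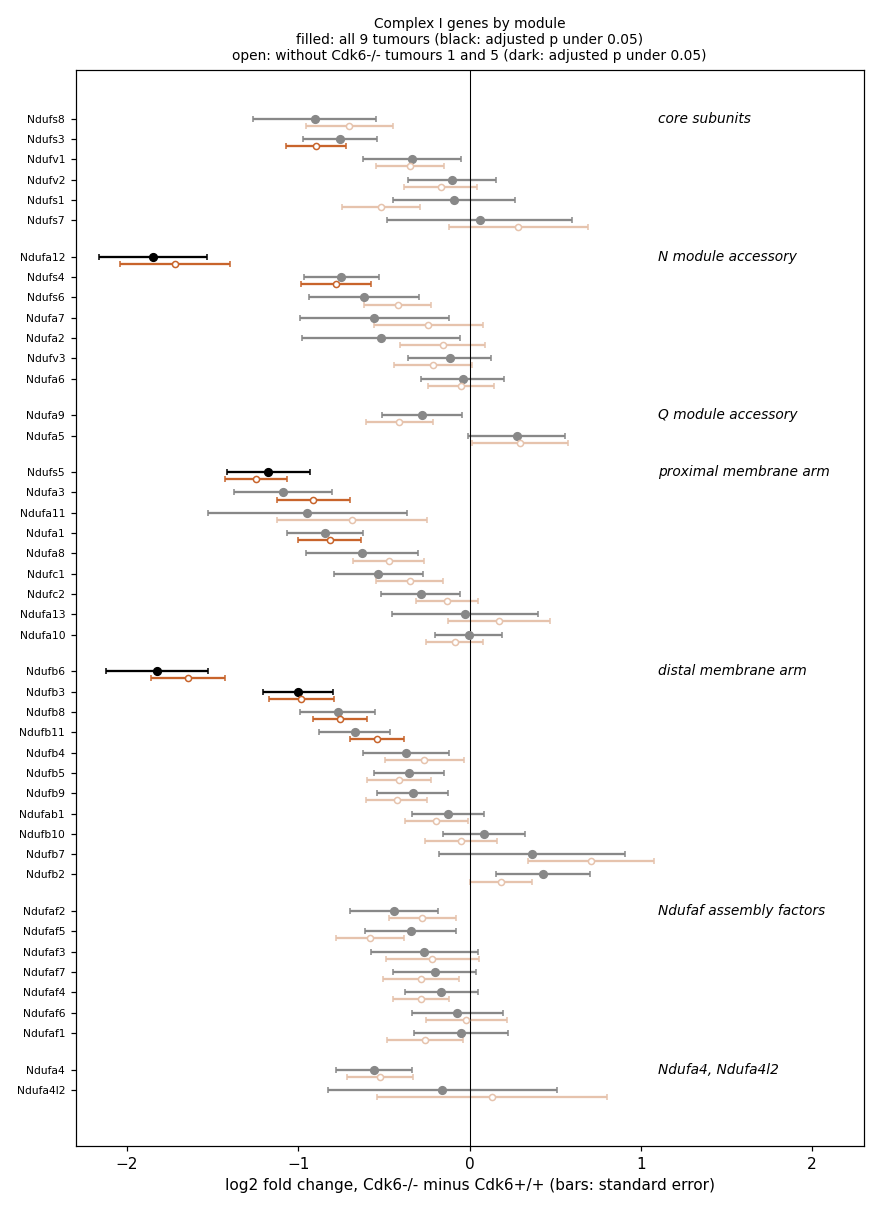
Log2 fold change (Cdk6-/- minus Cdk6+/+, x axis) of 44 complex I genes, grouped by module, with its standard error as the bar. Filled points use all 9 tumours (black, the 4 genes past the threshold) and open points leave out Cdk6-/- tumours 1 and 5 (dark, the 10 genes past it), and 39 of the 44 filled points lie below 0.

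The promoters of the 4 genes that fell are shown because these genes passed the threshold in the same direction. Whether they vary together from tumour to tumour was not tested. That of Ndufa10 is set beside them as the gene with the smallest change (log2 fold change -0.01). Sequences are the bases before the gene start of RefSeq on GRCm38.p6, at most 250, on the gene's own strand, without bases that the deposited table counts as exon. Capitals mark matches, on either strand, to the NRF1 motif CGCANGCGC, the ETS motif CCGGAA and the CCAAT box.
Ndufb6 (chr4:40279422-40279671, minus strand): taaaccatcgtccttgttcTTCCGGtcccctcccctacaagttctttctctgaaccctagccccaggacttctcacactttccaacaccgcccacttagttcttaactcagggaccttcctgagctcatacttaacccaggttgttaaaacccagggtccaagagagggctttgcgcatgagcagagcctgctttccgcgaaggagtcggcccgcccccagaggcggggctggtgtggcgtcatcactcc
Ndufa12 (chr10:94198785-94198954, plus strand): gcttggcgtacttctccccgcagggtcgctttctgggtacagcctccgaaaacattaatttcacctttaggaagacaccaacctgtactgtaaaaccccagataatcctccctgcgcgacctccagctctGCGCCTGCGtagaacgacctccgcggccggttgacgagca
Ndufb3 (chr1:58586147-58586383, plus strand): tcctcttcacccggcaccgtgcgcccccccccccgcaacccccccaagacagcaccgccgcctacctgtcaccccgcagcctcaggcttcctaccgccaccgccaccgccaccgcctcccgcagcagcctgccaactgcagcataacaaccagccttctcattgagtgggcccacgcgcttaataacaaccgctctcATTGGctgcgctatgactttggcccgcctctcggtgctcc
Ndufs5 (chr4:123718203-123718436, minus strand): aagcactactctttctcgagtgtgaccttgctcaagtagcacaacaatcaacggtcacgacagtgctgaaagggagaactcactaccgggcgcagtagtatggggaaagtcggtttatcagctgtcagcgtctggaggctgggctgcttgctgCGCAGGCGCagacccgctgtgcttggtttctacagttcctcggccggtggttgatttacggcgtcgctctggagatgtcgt
Ndufa10 (chr1:92473861-92474008, minus strand): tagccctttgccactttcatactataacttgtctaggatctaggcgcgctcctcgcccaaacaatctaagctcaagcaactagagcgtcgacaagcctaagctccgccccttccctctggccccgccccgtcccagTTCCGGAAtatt
Ndufa12 and Ndufs5 have an NRF1 match, Ndufb6 an ETS match far from the start, Ndufb3 a CCAAT box, and Ndufa10 a pair of ETS matches that overlap as a palindrome. RefSeq promoters were found for 39 of the 45 genes. A complex I gene counts once if any of its promoters matched, while the mouse shares given beside it are of single promoters. Within the 250 bases before the start, NRF1 matches occurred in 9 of these 39 (23.1%) and in 5.19% of 32851 mouse promoters, ETS matches in 9 (23.1%) and in 12%, and the CCAAT box in 13 (33.3%) and in 33.8%. AAGATGGCG, a YY1 motif, occurred in 0 of the 39 and in 0.606% of all promoters. The 9 genes with an NRF1 match included 2 of the 4 that fell, and the 9 with an ETS match included 1. The motifs were chosen after the promoters had been read, and a match describes letters, not binding.

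Levels between genes are compared as CPM per 1000 exon bases. In the Cdk6+/+ tumours they ran from 257 for Ndufa4, a small protein first assigned to complex I and later to cytochrome oxidase, to 1.16 for its paralogue Ndufa4l2. The next highest means over the 9 tumours were those of Ndufb9 (174 in Cdk6+/+ and 138 in Cdk6-/-) and Ndufc2 (114 and 93.5), accessory subunits of the membrane arm. In Cdk6+/+ alone Ndufa1 (138) stood above Ndufc2. The next lowest means over the 9 tumours belonged to assembly factors, Ndufaf6 (6.16 and 5.87) and Ndufaf3 (7.03 and 5.85), and in Cdk6+/+ alone Ndufb7 (6.26) stood below Ndufaf3. All 7 assembly factors except Ndufaf2 (36.5 and 26.9) stood below 15 in both groups. Of the 4 genes that fell, Ndufb6 and Ndufa12 had similar levels to each other before and after: 51.6 and 55.1 in Cdk6+/+, 14.6 and 15.3 in Cdk6-/-. Exon lengths are those of the deposited table, which count every exon of a gene, so a gene with long exons in rare transcripts is understated. The longest here are Ndufs1 (8086 bases) and Ndufab1 (6883 bases). Ndufb7 counts 4522 exon bases where its longest coding transcript has 623, so its low place may come from the length used.

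**Figure D2:**
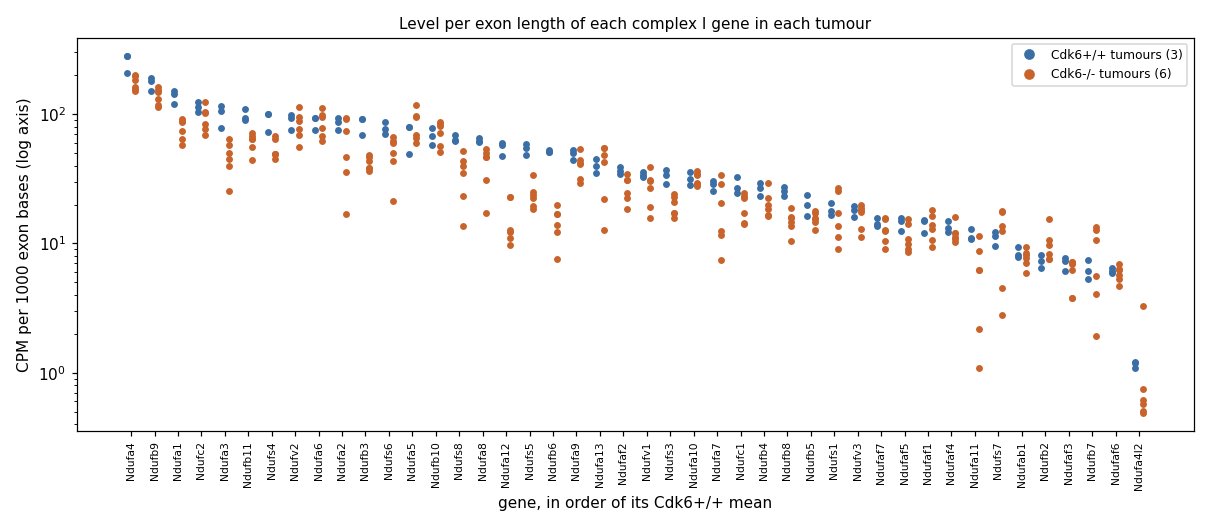
CPM per 1000 exon bases (log y axis) of 44 complex I genes in each of 3 Cdk6+/+ and 6 Cdk6-/- tumours (1 point a tumour), ordered by the Cdk6+/+ mean. Ndufa4 leads at 257 and Ndufa4l2 ends the order at 1.16, with 1 Cdk6-/- tumour above the others.

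The N module binds NADH, and 7 accessory subunits of it were measured. Of these 1 fell, 0 rose, all 7 estimates were negative, and their median was -0.56. Ndufa12 stood at 79.7, 63.7 and 77.1 CPM in Cdk6+/+ tumours 1 to 3 and between 13.03 and 30.7 CPM (median 16.6) in the Cdk6-/- tumours. Groups did not overlap, with tumours 3 and 6 the highest of the Cdk6-/- tumours. It fell by 1.85 on the log2 scale (SE 0.31, edgeR adjusted p = 0.01), and by 1.72 without Cdk6-/- tumours 1 and 5 (edgeR adjusted p = 0.00861). Its human counterpart takes the place of the assembly factor NDUFAF2 late in assembly, and Ndufaf2 had an estimate of -0.44 (SE 0.26, edgeR adjusted p = 0.393). Ndufs4, whose loss in mice gives a model of Leigh syndrome, stood at 154, 112 and 153 CPM in Cdk6+/+ and between 68.6 and 105 CPM (median 75.9) in Cdk6-/- tumours. The highest Cdk6-/- value lay under the lowest Cdk6+/+ value. Its estimate of -0.75 (SE 0.22) missed the threshold over all tumours (edgeR adjusted p = 0.083) and it fell by 0.78 without Cdk6-/- tumours 1 and 5 (edgeR adjusted p = 0.0339). Among the other 5, Ndufs6 also had groups apart with an estimate of -0.62, and Ndufa7, Ndufa2, Ndufv3 and Ndufa6 overlapped, with estimates from -0.56 to -0.04.

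Core subunits hold the cofactors. None of the 7 passed the threshold over all tumours by edgeR, 2 were lower at an unadjusted p under 0.05, and DESeq2 called 1 (Ndufs3). Ndufs3, a core subunit of the Q module, stood at 80.6, 63.3 and 73.6 CPM in Cdk6+/+ and between 34.4 and 52.2 CPM (median 41.8) in Cdk6-/- tumours. The groups were apart. Its estimate was -0.76 (SE 0.21, edgeR adjusted p = 0.075), and it fell by 0.90 without Cdk6-/- tumours 1 and 5 (edgeR adjusted p = 0.0108). Ndufs8, which carries a pair of iron-sulphur clusters, stood at 60.0, 60.4 and 66.3 CPM in Cdk6+/+ and between 13.2 and 50.4 CPM (median 35.9) in Cdk6-/- tumours. These groups were apart too, but the Cdk6-/- tumours spread widely, tumours 1 and 2 being lowest, and the estimate of -0.91 had an SE of 0.36 (edgeR adjusted p = 0.203).

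The core subunits described next overlapped between groups. Ndufv1, which binds NADH and flavin, stood at 85.9, 90.6 and 81.6 CPM in Cdk6+/+ and between 39.8 and 99.2 CPM (median 71.8) in Cdk6-/- tumours. Cdk6-/- tumour 5 lay above the Cdk6+/+ range and the other 5 Cdk6-/- tumours below it. The estimate was -0.34 (SE 0.29, edgeR adjusted p = 0.567). Ndufv2, an iron-sulphur protein beside Ndufv1, stood at 197, 150 and 186 CPM in Cdk6+/+ and between 111 and 224 CPM (median 165) in Cdk6-/- tumours. Ndufs1, which carries several clusters of the N module, stood at 145, 135 and 166 CPM in Cdk6+/+ and between 73.3 and 216 CPM (median 125) in Cdk6-/- tumours. Cdk6-/- tumours 1 and 5 were its highest and tumours 3 and 4 its lowest. Ndufs7, which holds the last cluster before ubiquinone, stood at 19.6, 20.98 and 16.3 CPM in Cdk6+/+ and between 4.76 and 30.5 CPM (median 22.5) in Cdk6-/- tumours, with tumours 1 and 2 below and the other 4 above every Cdk6+/+ tumour. The estimates of these 3 genes were -0.10 (SE 0.26), -0.09 (SE 0.36) and 0.06 (SE 0.54), and each changed sign under some alternative. The estimate of Ndufs1 was -0.52 without Cdk6-/- tumours 1 and 5 (edgeR adjusted p = 0.153). The 2 accessory subunits of the Q module did not pass the threshold by edgeR, at a Cdk6+/+ mean of 103 and a Cdk6-/- mean of 84.8 CPM for Ndufa9 (estimate -0.28) and of 71.5 and 86.5 CPM for Ndufa5 (estimate 0.27). None of the 2 passed by DESeq2 or at an unadjusted p under 0.05.

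Of 9 accessory subunits of the proximal membrane arm 1 fell and 0 rose, and all 9 estimates were negative with a median of -0.63. Ndufs5, a small subunit on the intermembrane space side, stood at 47.1, 41.8 and 50.2 CPM in Cdk6+/+ and between 15.9 and 29.3 CPM (median 19.9) in Cdk6-/- tumours. Its groups were apart, with tumour 5 the highest of the Cdk6-/- tumours. It fell by 1.18 on the log2 scale (SE 0.24, edgeR adjusted p = 0.0217), and by 1.25 without Cdk6-/- tumours 1 and 5 (edgeR adjusted p = 0.00298). Ndufa3 stood at 118, 79.8 and 108 CPM in Cdk6+/+ and between 25.9 and 65.2 CPM (median 48.4) in Cdk6-/- tumours. The X-linked Ndufa1, essential for assembly in hamster cells, stood at 60.2, 50.5 and 63.0 CPM in Cdk6+/+ and between 24.1 and 38.1 CPM (median 33.5) in Cdk6-/- tumours. In both the groups were apart and tumour 1 was lowest. Over all tumours their estimates of -1.09 (SE 0.29) and -0.84 (SE 0.22) narrowly missed the threshold, at edgeR adjusted p of 0.0556 and 0.0554. Without Cdk6-/- tumours 1 and 5 both passed it (-0.91 and -0.82, edgeR adjusted p = 0.0223 and 0.0191). Ndufa8 and Ndufc1 had groups apart with estimates of -0.63 and -0.53. For Ndufc1 the gap was very small, from 36.57 CPM in Cdk6+/+ tumour 2 to 36.54 CPM in Cdk6-/- tumour 3. The remaining 4 overlapped: Ndufa11 (-0.95, SE 0.58), Ndufc2 (-0.29), Ndufa13 (-0.03) and Ndufa10 (-0.01). Ndufc2 was among the 3 highest per length by the mean over all 9 tumours, though not in Cdk6+/+ alone. It stood at 93.1, 78.9 and 85.7 CPM in Cdk6+/+ and between 52.0 and 93.9 CPM (median 70.3) in Cdk6-/- tumours. Ndufa10 stood at 106 CPM in both groups (SD 12.9, n = 3 and SD 11.7, n = 6).

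Among 11 distal subunits 2 fell and 0 rose, with a median of -0.36. Ndufb6 stood at 33.4, 33.7 and 34.8 CPM in Cdk6+/+ and between 5.03 and 13.1 CPM (median 10.1) in Cdk6-/- tumours. No complex I gene varied less among the Cdk6+/+ tumours, and the lowest Cdk6-/- value was that of tumour 1. Ndufb6 fell by 1.82 on the log2 scale (SE 0.30, edgeR adjusted p = 0.0086), and by 1.65 without Cdk6-/- tumours 1 and 5 (edgeR adjusted p = 0.00205). Ndufb3, also an accessory subunit of that arm, stood at 70.1, 52.3 and 69.7 CPM in Cdk6+/+ and between 27.9 and 36.7 CPM (median 31.3) in Cdk6-/- tumours. Groups were apart, and the 6 Cdk6-/- tumours lay close together. It fell by 1.00 on the log2 scale (SE 0.20, edgeR adjusted p = 0.0205). Tumour 6 had Xist and Ddx3y levels like those of the Cdk6+/+ tumours. There the 4 genes that fell stood at 13.1 (Ndufb6), 30.7 (Ndufa12), 29.1 (Ndufb3) and 16.9 CPM (Ndufs5). For these 4 genes every Cdk6-/- tumour lay below every Cdk6+/+ tumour, so this single library is no separate test. The part of Xist and Ddx3y in the fall was not tested.

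Ndufb8, whose protein is lost when the complex does not assemble, stood at 85.4, 73.5 and 80.3 CPM in Cdk6+/+ and between 32.8 and 59.1 CPM (median 47.7) in Cdk6-/- tumours. The X-linked Ndufb11 stood at 98.9, 81.5 and 85.2 CPM in Cdk6+/+ and between 39.8 and 64.7 CPM (median 58.3) in Cdk6-/- tumours. In both the groups were apart, with tumour 1 lowest. Their estimates of -0.77 (SE 0.22) and -0.67 (SE 0.21) missed the threshold (edgeR adjusted p = 0.074 and 0.105) and passed it without Cdk6-/- tumours 1 and 5 (-0.76 and -0.54, edgeR adjusted p = 0.0132 and 0.0467). Ndufb9 stood at 124, 97.6 and 118 CPM in Cdk6+/+ and between 74.2 and 105 CPM (median 91.1) in Cdk6-/- tumours, with overlap. Its estimate was -0.33 (SE 0.20, edgeR adjusted p = 0.419), and Ndufb4, Ndufb5 and Ndufab1, the mitochondrial acyl carrier protein, had estimates from -0.37 to -0.13. The only positive ones in the arm were Ndufb2 (0.43, SE 0.28), Ndufb7 (0.37, SE 0.54) and Ndufb10 (0.08, SE 0.24), all with overlapping groups.

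**Figure D3:**
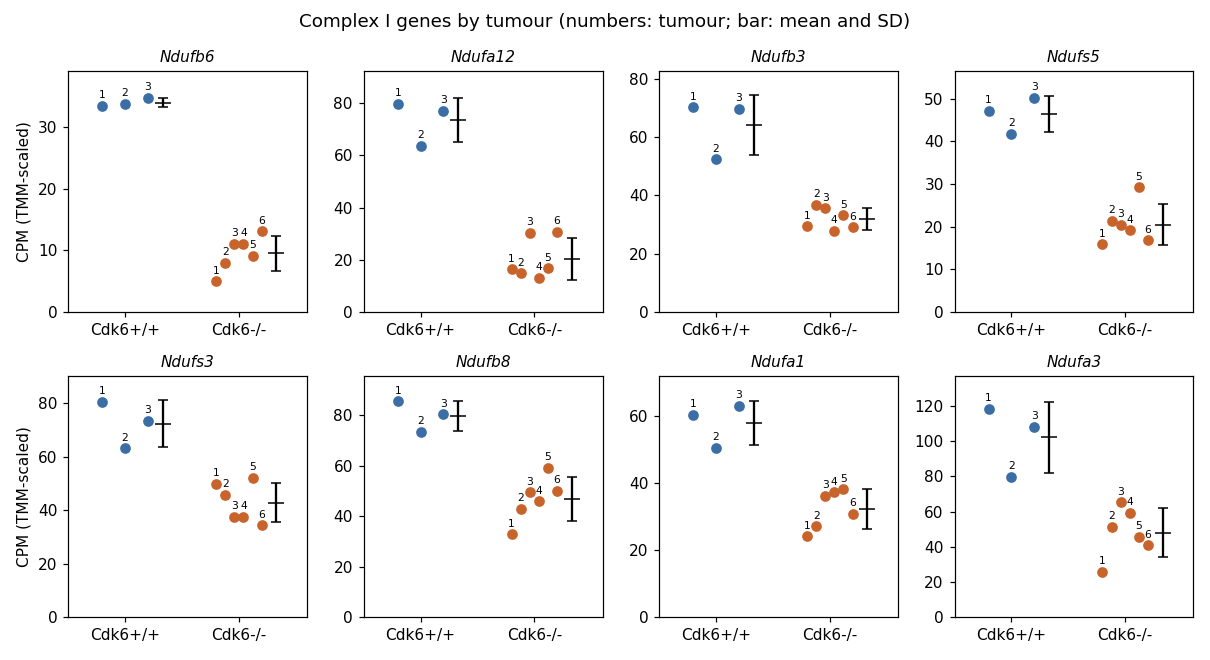
CPM (y axis, from 0) of 8 complex I genes in each tumour, with the tumour's number beside its point and the mean and SD as the bar (n = 3 Cdk6+/+, n = 6 Cdk6-/-). The genes were chosen for their small p in these same tumours, which favours groups that lie apart. In each panel every Cdk6-/- tumour lies below every Cdk6+/+ tumour, as in 15 of the 45 genes and in 7.98% of all tested genes.

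All 7 assembly factors had negative estimates, from -0.44 (Ndufaf2) to -0.05 (Ndufaf1), with a median of -0.20. By edgeR, by DESeq2 and at an unadjusted p under 0.05, 0 passed, and all 7 overlapped between groups. Ndufaf3, which acts early on the Q module, stood at 13.9, 13.3 and 11.1 CPM in Cdk6+/+ and between 6.90 and 13.04 CPM in Cdk6-/- tumours. Ndufaf6, another early factor, stood at 7.92, 7.29 and 7.62 CPM in Cdk6+/+ and between 5.84 and 8.52 CPM (median 7.37) in Cdk6-/- tumours. Tumours 1 and 2 were the lowest for Ndufaf3, and for Ndufaf6 the Cdk6-/- tumours lay on both sides of the Cdk6+/+ tumours. Their estimates were -0.26 (SE 0.31) and -0.07 (SE 0.27). A further factor, Ndufaf8, stands in the count table as 1810043H04Rik, outside the naming rule, with an estimate of -0.29 (SE 0.56, edgeR adjusted p = 0.827).

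Ndufa4 stood at 392, 286 and 388 CPM in Cdk6+/+ and between 209 and 276 CPM (median 238) in Cdk6-/- tumours. Its groups were apart by a small gap, and its estimate was -0.56 (SE 0.22, edgeR adjusted p = 0.201). Ndufa4l2, known as a hypoxia-induced gene, stood at 1.13, 1.17 and 1.04 CPM in Cdk6+/+ tumours. Cdk6-/- tumour 4 reached 3.18 CPM while the other 5 lay between 0.469 and 0.718 CPM, below every Cdk6+/+ tumour. The estimate was -0.16 (SE 0.67).

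Some of these genes share sequence with another annotated gene, among them processed pseudogenes, which are copies of the spliced transcript elsewhere in the genome. The share of a gene's 50-base sequences that occur exactly in another annotated gene was 21.7% for Ndufs5, 18.3% for Ndufb4, 17.7% for Ndufa12, 16.1% for Ndufs3 and 15.6% for Ndufb9, and 0% for 23 of the 45. For Ndufb9 the other gene is the protein-coding Gm49356, whose exons overlap those of Ndufb9 on the same strand, and for the other 4 it is chiefly a processed pseudogene. Fold changes of these other 4 are uncertain for that reason, and 2 of the 4 genes that fell are among them. By the exons of the deposited table, Ndufb9 overlaps no gene on its own strand (0%). The copy BC002163 of Ndufs5 on chromosome 16 is 99.4% identical over 318 coding bases, and the copy Gm15920 of Ndufa12 on chromosome 5 is 99.5% identical over 399. Reads of 50 bases, the length sequenced here, can tell gene and copy apart only where they cover a difference, so the first window of that length with the most differences is shown, from GENCODE M21 transcripts, with the differing bases in capitals.
Ndufs5: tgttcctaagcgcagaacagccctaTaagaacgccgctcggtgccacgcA
BC002163: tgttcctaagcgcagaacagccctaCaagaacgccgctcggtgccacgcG
Ndufa12: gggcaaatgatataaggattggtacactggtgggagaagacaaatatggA
Gm15920: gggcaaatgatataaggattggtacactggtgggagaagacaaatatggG
Counted from the first base of the coding sequence, with the gene's base first, the windows differ by T81C and A105G in Ndufs5 and by A147G in Ndufa12. Of the 269 aligned 50-base windows of Ndufs5, 195 are identical in BC002163, and of the 350 of Ndufa12, 278 are identical in Gm15920.

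The counts given to these copies differed between the groups. BC002163 had 677, 468 and 497 counts in Cdk6+/+ tumours 1 to 3 and 58, 2, 5, 4, 1 and 1 in Cdk6-/- tumours 1 to 6. Of the summed counts of gene and copy it held 20.8% in Cdk6+/+ and 2.16% in Cdk6-/- tumours. Tumour 1, at a share of 16.3%, gave 58 of the 71 Cdk6-/- counts, and without it the Cdk6-/- share was 0.444%. Gm15920 had 1102, 560 and 639 counts in Cdk6+/+ and 188, 862, 546, 620, 361 and 1 in Cdk6-/- tumours. Here the share was the higher in the Cdk6-/- tumours, 43.7% against 18.7%. In single Cdk6-/- tumours it ran from 30.7% to 68.2%, except in tumour 6, with 1 count and a share of 0.146%. Copies of Ndufab1 (Gm4459), Ndufb11 (Gm6444) and Ndufs3 (Gm12251) had 93, 40 and 46, then 70, 26 and 40, then 11, 4 and 2 counts in the Cdk6+/+ tumours, and at most 2 in any Cdk6-/- tumour. When gene and copy were added together, in an alternative chosen after seeing the data, Ndufs5 fell by 1.47 (SE 0.22, edgeR adjusted p = 0.00621) and Ndufa12 by 1.30 (SE 0.23, edgeR adjusted p = 0.0118). Both still passed the threshold. Ndufb6 and Ndufb3 passed too, but no copy was added to them, so the sum did not probe these genes. Ndufb3 shares 6.72% of its 50-base sequences with a processed pseudogene, Gm45930, which is absent from the count table. Adding counts also cannot restore reads left out in counting, whose handling of multiple alignments is not described.

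**Figure D4:**
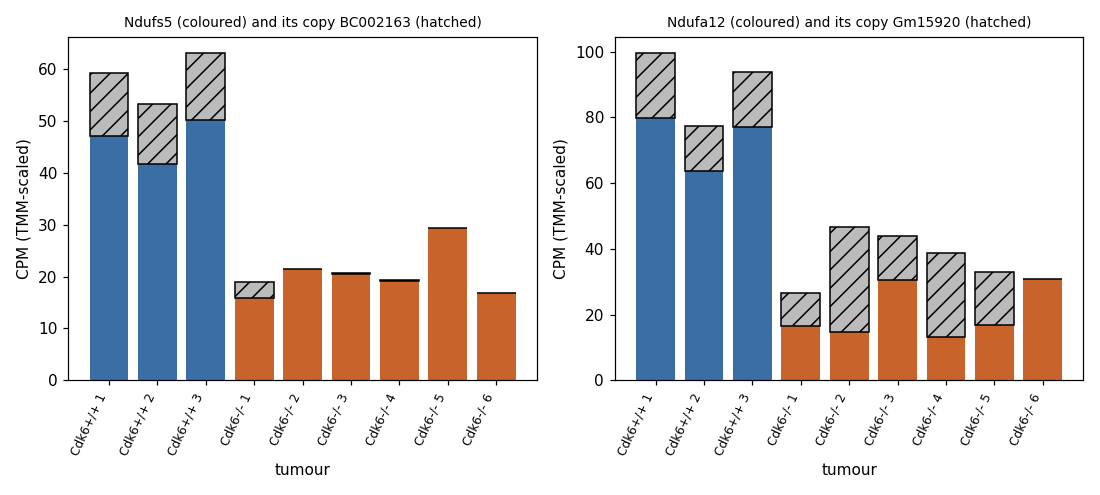
CPM in each tumour (stacked bars from 0) of Ndufs5 with its copy BC002163 and of Ndufa12 with its copy Gm15920, genes in colour (blue Cdk6+/+, orange Cdk6-/-) and copies hatched. The BC002163 share of the summed counts is 20.8% in Cdk6+/+ and 2.16% in Cdk6-/- tumours (0.444% without tumour 1), the Gm15920 share 18.7% and 43.7%, and both sums are lower in every Cdk6-/- tumour.

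Exons of 14 of the 45 genes lie opposite exons of another gene, and for 5 of them this covers over 10% of the exon length. These are Ndufb6 (39%, opposite Toporsos), Ndufa13 (30.2%, Tssk6), Ndufb11 (12.9%, Rbm10), Ndufb5 (12.3%, Mrpl47) and Ndufa2 (10.5%, Tmco6). For the other 9 it covers less. No source used here says whether strand was used in counting, and without strand the reads of such pairs cannot be told apart. Toporsos was counted at means of 1.65 and 1.56 CPM in the Cdk6+/+ and Cdk6-/- tumours, against 34.0 and 9.59 CPM for Ndufb6.

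Complex I genes differed among the Cdk6-/- tumours themselves. The ratio of the highest to the lowest Cdk6-/- tumour had a median of 1.83 over the 45 genes, from 1.29 to 10.5, while 14147 genes with at least 1 CPM in Cdk6+/+ tumours had a median of 3.21. Among the 3 Cdk6+/+ tumours the medians were 1.24 and 1.26. Such a ratio tends to be larger with more tumours and with fewer counts. The groups differ in both, and the 14147 genes were not matched to the complex I genes by level. The widest spread belonged to Ndufa11 (10.5), a proximal arm subunit, Ndufb7 (6.97), Ndufa4l2 (6.77), Ndufs7 (6.41), Ndufa2 (5.53), Ndufa7 (4.52) and Ndufa13 (4.30). All but Ndufa2 have a transcript GC content of at least 55%. Ndufa11 stood at 2.89 and 5.75 CPM in Cdk6-/- tumours 1 and 2 and at 16.6 to 30.2 CPM in the other 4, and Ndufb7 at 8.72 and 18.2 CPM against 25.2 to 60.7 CPM. Over the 11 genes with a GC content of at least 55%, the median log2 ratio to the Cdk6+/+ mean was -1.10 in Cdk6-/- tumour 1 and -0.84 in tumour 2, but 0.05, 0.26 and 0.03 in tumours 3, 4 and 5 and -0.40 in tumour 6. Across the 45 genes the correlation of GC content with that ratio was r = -0.45 and -0.36 in tumours 1 and 2 and 0.33, 0.41, 0.10 and 0.36 in tumours 3 to 6. Over 14147 genes the sign was the same in each of these tumours, at r = -0.26 and -0.11, then 0.45, 0.44, 0.07 and 0.24. Among the Cdk6+/+ tumours, each set against the mean of the other Cdk6+/+ tumours, the correlation also took both signs, at r = -0.45, 0.61 and -0.50 across the 45 genes and -0.21, 0.50 and -0.34 over the 14147. Genes are not independent replicates, and the points of a tumour share its library and depth. Tumour 1 was the lowest Cdk6-/- tumour for 20 of the 45 genes and the highest for 11. Among the 4 genes that fell GC content ran from 45.0% to 51.5%.

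**Figure D5:**
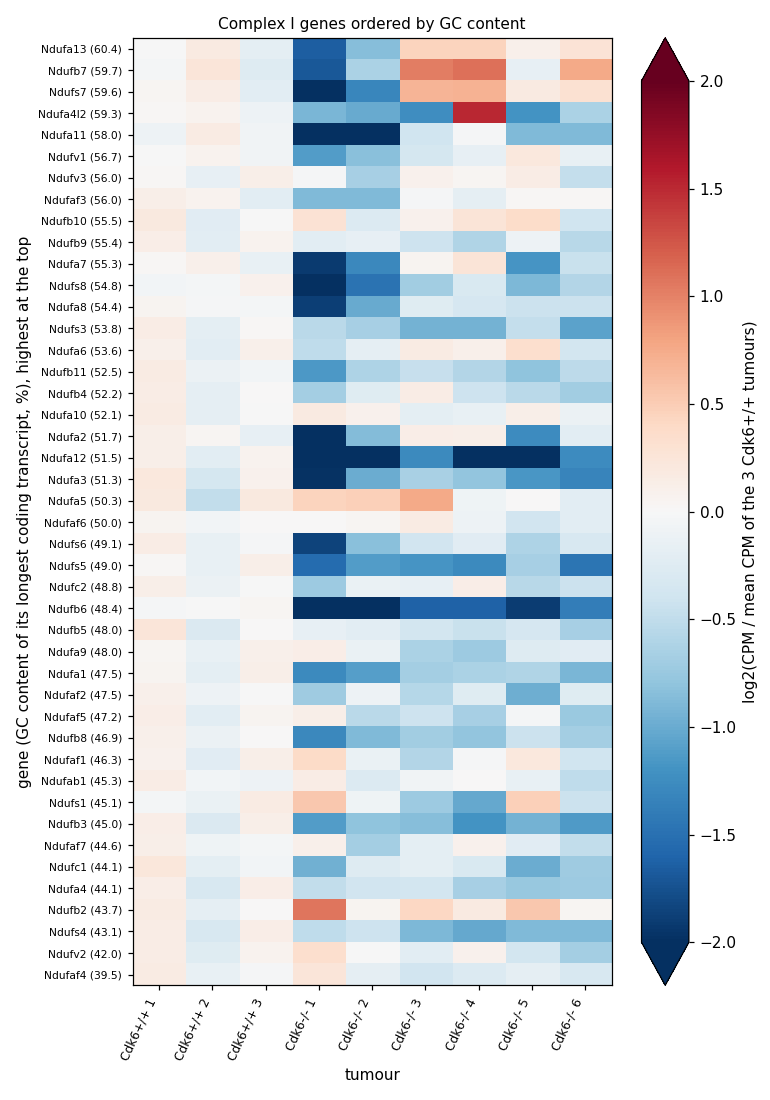
Log2 ratio of each tumour's CPM to the Cdk6+/+ mean (colour, limited to -2 and 2) for 44 complex I genes, ordered by GC content in percent, highest at the top. The median of the 11 genes with a GC content of at least 55% is -1.10 and -0.84 in Cdk6-/- tumours 1 and 2 and 0.05 and 0.26 in tumours 3 and 4, single genes such as Ndufb10 do not follow it, and Ndufb6, Ndufa12, Ndufb3 and Ndufs5 are low in all 6 Cdk6-/- tumours.

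Many complex I transcripts are short, and short transcripts were lower in general. Of the 45 genes 22 have transcripts under 1000 bases, with a median log2 fold change of -0.54 and 3 of them called lower, and 682 protein-coding genes of that length had a median of -0.44 with 12.9% called lower. From 1000 to under 2000 bases 16 complex I genes had a median of -0.31 with 1 called, and 2748 protein-coding genes had -0.10 with 3.2% called. At 2000 bases or more the values were -0.13 with 0 of 7 called by edgeR (1 at an unadjusted p under 0.05, and 1 by DESeq2), and 0.16 with 0.54% called over 10924 genes. By edgeR's adjusted p the share of short complex I genes called lower thus lay near that of all short protein-coding genes. At an unadjusted p under 0.05, 7 of the 22 and 4 of the 16 were lower, and DESeq2 called 7 and 3. For these counts no share over all protein-coding genes of that length was computed. Across the 45 genes the correlation of log2 length with log2 fold change was r = 0.36 (Spearman's rho = 0.35), and 0.16 without Cdk6-/- tumours 1 and 5. The part of length in the fold changes was not tested.

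Complex I also takes 7 ND subunits from mitochondrial DNA. Of these 7 genes 1 fell, mt-Nd3, from 18.7 to 1.12 CPM (log2 fold change -4.06, SE 0.45, edgeR adjusted p = 0.0011), but 98% of its 50-base sequences also occur in another annotated gene, so its count is uncertain. The same holds for mt-Nd4l (98.8%) and mt-Nd4 (62.2%). The other 6 did not pass, and their estimates ran from -0.29 for mt-Nd5 to 0.68 for mt-Nd6 (605 and 970.5 CPM). Without Cdk6-/- tumours 1 and 5, 6 of the 7 estimates were negative with a median of -0.34, and mt-Nd2 and mt-Nd5 stood at -0.86 and -0.94 (edgeR adjusted p = 0.0677 and 0.0715). The abundant mt-Nd1 stood at means of 4413 (SD 996, n = 3) and 4665 CPM (SD 1838, n = 6). Assembly factors outside the Ndufaf names gave 0 calls of 11 tested by edgeR, 2 at an unadjusted p under 0.05 and 1 by DESeq2, with a median of -0.15. Lyrm2 had the smallest p, at 39.7 and 17.2 CPM (log2 fold change -1.21, SE 0.33, edgeR adjusted p = 0.0666). It fell by 1.05 without Cdk6-/- tumours 1 and 5 (edgeR adjusted p = 0.0175), as 1 of the 11, and the median there was -0.40. Nubpl, which delivers iron-sulphur clusters to the complex, had an estimate of -0.88 (SE 0.38, edgeR adjusted p = 0.239).

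In the other respiratory complexes, of 40 nuclear genes for complexes II to V and cytochrome c 17 fell and 0 rose, with a median of -0.77 and 37 negative estimates, against 4 of 45 and -0.34 for complex I. That difference between the lists was not tested, and the 40 genes were not split by transcript length. Over all tested genes 2.43% were called lower and 2.76% higher. The smallest p belonged to Atp5l of ATP synthase (109 and 13.2 CPM, log2 fold change -3.05), Cycs, cytochrome c (98.1 and 30.7 CPM, -1.68), Cox7a2 of cytochrome oxidase (266 and 99.3 CPM, -1.42) and Atp5g1 (87.3 and 25.7 CPM, -1.76). Their edgeR adjusted p were 0.000275, 0.00206, 0.00363 and 0.0046. Of the 17, 9 share over 10% of their 50-base sequences with another annotated gene, Cycs (25.9%) and Atp5g1 (10.2%) among them, and their fold changes are uncertain for that reason. Without Cdk6-/- tumours 1 and 5, 24 of the 40 fell, where 6.14% of all tested genes were called lower. Of 13 regulators of mitochondrial biogenesis 0 passed the threshold by edgeR, by DESeq2 or at an unadjusted p under 0.05, and their median was 0.19. Tfb2m, a mitochondrial transcription factor, had the smallest p (24.2 and 15.3 CPM, log2 fold change -0.66, SE 0.30, edgeR adjusted p = 0.262). The median was -0.05 without Cdk6-/- tumours 1 and 5, and 1 of the 13 rose there, Pprc1, a coactivator related to PGC-1 (0.95, edgeR adjusted p = 0.0341). In that comparison 8.12% of all tested genes were called higher, so 1 of 13 is near the share over all genes. Nrf1, named in the promoter motif, stood at means of 50.8 (SD 6.29, n = 3) and 62.0 CPM (SD 20.5, n = 6), with an estimate of 0.29 (edgeR adjusted p = 0.657). In the authors' deposited table of their DESeq2 result, which lists 761 genes, 0 of the 45 complex I genes occur, and no source used here gives the filter behind that list.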

How the data were processed

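Whole tumours were extracted with Trizol and TruSeq libraries were made from total RNA, per the labels' protocols. Per the submitters' processing notes, HISAT2, FastQC, Trimmomatic and DESeq2 were used, with no version named, on the build GRCm38.p6. The counting step (tool, strand, multiple alignments, annotation release) is not described in the sources used here. Deposited by the authors were unnormalized whole-number counts per gene, with exon lengths per the file headers. The authors also deposited a DESeq2 table with log2 fold changes, p-values and a score, minus log2 of the p-value, which was not used beyond its gene names.

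Samples were grouped by their labelled genotype. The filter filterByExpr was applied to the genes (18356 kept, 29237 removed), which were TMM-scaled and tested with edgeR 4.0.16 in R 4.3.3 (robust quasi-likelihood F test with genotype as its only term, two-sided), with Benjamini-Hochberg adjustment over all tested genes and a 0.05 threshold. CPM refer to the TMM-scaled library. Library totals ran from 21.4 to 56.8 x 1e6 counts, and the common biological coefficient of variation was 0.542 (0.348 without Cdk6-/- tumours 1 and 5). No pair of libraries in a group agreed within sampling noise by a chi-square test. The fit was tested on simulated data with known changes. Alternatives used DESeq2 1.42.0 and limma 3.58.1 (voom), other scalings and filters, a Ddx3y covariate (log2 of CPM plus 0.1), a replicate block and leaving out tumours.

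The genes, lists and naming rule were chosen with earlier results of these data known. Named with values are the genes past the threshold, the 8 with the smallest p without Cdk6-/- tumours 1 and 5, core subunits, the 3 highest and 3 lowest per length, Ndufa4 and Ndufa4l2, and up to 4 genes of each other list. The values of 1 gene are not reported here. Other genes named for their spread between tumours were chosen after their values were seen. Shared 50-base sequences, GC content and copies come from GENCODE M21 transcripts, where all 45 genes were found by name, 29 with the same exon length as in the deposited table. Promoters come from RefSeq (GRCm38.p6). GC correlations used log2 ratios of CPM plus 0.5. Other steps ran in Python 3.11.15 with pandas 2.3.3, scipy 1.17.1 and numpy 2.4.6.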

Additional observations from a re-analysis of the deposited data

Results flagged for a closer look

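Among the 6 Cdk6-/- tumours, 2 complex I genes had 1 tumour far from the others. The gap to the nearest tumour, divided by the whole range, was above Dixon's 95% critical value for 6 samples, which chance exceeds in about 1 in 20 groups, and 44 genes were looked at. Ndufaf4, an early assembly factor, stood at 62.3 CPM in tumour 1, with the next at 46.7 and the lowest at 40.3 CPM (ratio 0.709). Ndufa4l2 stood at 3.18 CPM in tumour 4, with the next at 0.718 and the lowest at 0.469 CPM (ratio 0.908).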

How the results depend on the processing

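Of all tested genes 953 passed the threshold, against 2309 with DESeq2, 563 with a filter of 1 CPM in 3 libraries, 66 with the Ddx3y covariate, 2643 without Cdk6-/- tumours 1 and 5, and 207 to 1506 when each tumour was left out in turn. The count of complex I genes was 4, against 11 with DESeq2, 0 with the Ddx3y covariate, 10 without Cdk6-/- tumours 1 and 5, 2 among genes with under 10% shared sequence, and 0 to 7 when each tumour was left out. Without Cdk6-/- tumours 1 and 5 the count was 10, and 3 to 12 when each remaining tumour was left out (3 without Cdk6+/+ tumour 1 or 3). Every complex I gene called under these settings was lower, except Ndufb7 (higher without Cdk6-/- tumours 1, 2 and 5). The median over the 45 genes was -0.34 and lay between -0.45 and -0.28 under every alternative run, and between -0.42 and -0.24 in those run without Cdk6-/- tumours 1 and 5 (-0.33 there).

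Tumour numbers 1 to 3 occur in both groups but did not pair the samples: deviations from the group means of same-numbered tumours correlated at -0.03, -0.14 and -0.33. With the number as a replicate block in these 6 tumours 2 complex I genes and 753 genes in all passed, against 3 and 985 in the same tumours without it.

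Of the 4 genes, all kept their sign under every alternative. Their groups did not overlap, so leaving out tumours could not have changed it. With the Ddx3y covariate their edgeR adjusted p were 0.134 (Ndufb6), 0.192 (Ndufa12), 0.14 (Ndufb3) and 0.0825 (Ndufs5), and without Cdk6+/+ tumour 3 they were 0.0523, 0.0576, 0.126 and 0.119. The cause was not tested. Small estimates changed sign. Ndufs7 (0.06) went to -0.19 with limma-voom, -0.29 with the Ddx3y covariate, -0.88 with the replicate block and -0.38 in tumours 1 to 3 alone, and ran from -0.12 to 0.26 when each tumour was left out. Ndufs1 (-0.09) went to 0.064 with the covariate and 0.011 in tumours 1 to 3, stood at -0.52 without Cdk6-/- tumours 1 and 5, and ran from -0.26 to 0.0476 when each tumour was left out. In tumours 1 to 3, with and without the block, Ndufv2 was at 0.0665 and 0.0722 and Ndufaf6 at 0.0856 and 0.0874. Ndufa4l2 went to 0.13 without Cdk6-/- tumours 1 and 5. Every Cdk6-/- library held fewer counts than every Cdk6+/+ library, so depth and label cannot be told apart.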
